A study of Homo sapiens with 4 samples.

Results

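The FYN locus on chromosome 6 was described from the chromatin loops listed around it in SMC1 HiChIP libraries of GM12878, a B cell line immortalised with Epstein-Barr virus. HiChIP joins proximity ligation of cross-linked chromatin with immunoprecipitation, here of SMC1, a subunit of the cohesin ring. The groups were HU (hydroxyurea, 0.2 mM, 18 h), APH (aphidicolin, 0.4 µM, 18 h), H2O (water, the vehicle of hydroxyurea) and DMSO (dimethyl sulfoxide, the vehicle of aphidicolin), each with 1 library. Hydroxyurea blocks ribonucleotide reductase and aphidicolin blocks replicative DNA polymerases. A loop was counted when 1 of its 5 kb anchors lay on or within 500 kb of the RefSeq body of FYN (hg38, chr6:111660332-111873452), that is between 111160332 and 112373452. This rule took 69 of the 41846 loops listed in any library, and 41 of the 69 had an anchor on FYN itself. In all 4 libraries 16 of the 69 were listed, 9 of them with an anchor on FYN, out of 9529 such loops in the whole series. The window was chosen by its low counts under hydroxyurea, so the values of HU against either vehicle describe it and support nothing.

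FYN encodes a tyrosine kinase of the Src family, which is anchored to the inner face of the plasma membrane and phosphorylates immune receptors and their adaptors. In T cells it acts next to its relative LCK below the antigen receptor, and in B cells family members such as LYN and BLK start antigen receptor signalling. Cohesin extrudes chromatin into loops until it meets CTCF bound to DNA, and an anchor that is met from many positions appears as a fan of loops with 1 common end. FYN lies on the minus strand, so its start is at the high coordinate and its end faces REV3L and TRAF3IP2.

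Of 4 RefSeq windows around FYN start sites, 3 (GRCh38.p14, the same build as hg38, 250 bases before to 50 after each start) are shown because loop anchors of these libraries lie on them. Both upstream windows fall in 1 anchor bin, and the internal one touches the anchor bin at 111760001. Capitals mark GGGCGG, the GC box bound by SP1 factors, and AGNGGGC, a part of the CTCF core motif, on either strand.
FYN first start, chr6:111873403-111873702, minus strand: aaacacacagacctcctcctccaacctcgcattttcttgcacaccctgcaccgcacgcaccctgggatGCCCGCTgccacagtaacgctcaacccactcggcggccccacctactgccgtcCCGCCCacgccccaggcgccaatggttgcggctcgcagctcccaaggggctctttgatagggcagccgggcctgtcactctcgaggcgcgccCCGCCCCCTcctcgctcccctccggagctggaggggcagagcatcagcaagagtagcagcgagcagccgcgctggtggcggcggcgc
FYN second start, chr6:111873022-111873321, minus strand: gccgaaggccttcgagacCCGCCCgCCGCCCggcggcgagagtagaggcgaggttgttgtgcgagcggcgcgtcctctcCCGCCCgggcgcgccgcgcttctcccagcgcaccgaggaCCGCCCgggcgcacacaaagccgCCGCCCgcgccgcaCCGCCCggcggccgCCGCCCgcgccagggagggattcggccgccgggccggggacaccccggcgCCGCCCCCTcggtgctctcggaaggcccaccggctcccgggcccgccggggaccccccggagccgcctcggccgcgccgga
FYN internal start, chr6:111759868-111760167, minus strand: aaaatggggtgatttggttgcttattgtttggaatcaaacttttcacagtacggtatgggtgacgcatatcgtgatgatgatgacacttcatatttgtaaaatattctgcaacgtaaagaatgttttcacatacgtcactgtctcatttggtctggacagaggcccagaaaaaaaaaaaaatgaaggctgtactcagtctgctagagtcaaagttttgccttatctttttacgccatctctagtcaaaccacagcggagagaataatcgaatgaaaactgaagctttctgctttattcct
The first window had 69.0% G and C with 26 CpG, 2 GC boxes and 2 matches to the CTCF letters. The second had 82.3% G and C with 55 CpG, 8 GC boxes and 1 match to the CTCF letters. In each of these 2 windows 1 match to the CTCF letters overlaps a GC box. The internal window had 38.0% G and C with 8 CpG and neither motif. Of 35116 RefSeq promoter windows of the same length, 45.0% hold the GC box and 30.4% the CTCF letters, so the matches are common ones. The sequence of the anchors beyond these windows was not used here.

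The lists hold called loops only, each with at least 12 contact counts, and a pair of bins that is not listed may still have counts. They comprise 21448 loops in HU, 27395 in APH, 22446 in H2O and 17660 in DMSO. Ratios below use the loops listed in all 4 libraries, with each library scaled by its total over those 9529 loops, 322048 counts in HU, 376948 in APH, 325634 in H2O and 300320 in DMSO. With 1 library per group there is no replicate check and no test. Brackets hold 95% exact conditional binomial intervals, which cover counting error only and may be too narrow, since reads after PCR are not independent molecules and the labels mention no molecular barcodes. As a check of the label, 9 of 10 B cell marker genes (all but CD79B) had a listed loop in some library, as did 6 of 8 T cell markers (not CD28 and CD8A), 3 of 4 myeloid markers (not LYZ) and none of the 3 erythroid markers. A loop on a gene is not its expression, and the share of all genes with a listed loop is not given. These counts therefore do not tell B from T or myeloid cells and do not settle the label.

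Most loops of FYN shared 1 end. The bin chr6:111995001-112000000, which lies 122 kb upstream of the first FYN start and on no annotated gene, was joined to FYN by 13 loops in HU, 14 in APH, 19 in H2O and 12 in DMSO. Counting all its partners, it carried 15 loops in HU, 14 in APH, 21 in H2O and 12 in DMSO, where the median anchor carried 1. No other of the 24091 anchors in the HU list, and no other of the 24289 in the H2O list, carried as many. In APH, 23 of 28721 anchors carried at least as many, itself included, and in DMSO 14 of 20048. This anchor was picked out after its values were seen, and its place falls with a stricter minimum: with at least 24 counts a loop it carried 4 loops in HU, 6 in APH, 9 in H2O and 4 in DMSO, at places 160, 68, 2 and 132 in those lists. A second upstream bin, at 112040001, was joined to FYN by 3 loops in HU, 2 in APH, 3 in H2O and 3 in DMSO. Over all lists, loops to the nearer bin started from FYN bins between 111700001 and 111870001, near the end of the gene up to its promoter, while those to 112040001 started between 111675001 and 111710001 only, near its end. A few FYN loops ended in other upstream bins, 3 of them at 111990001 and 2 at 112025001. Loops to both main upstream bins were listed in all 4 libraries.

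**Figure D1:**
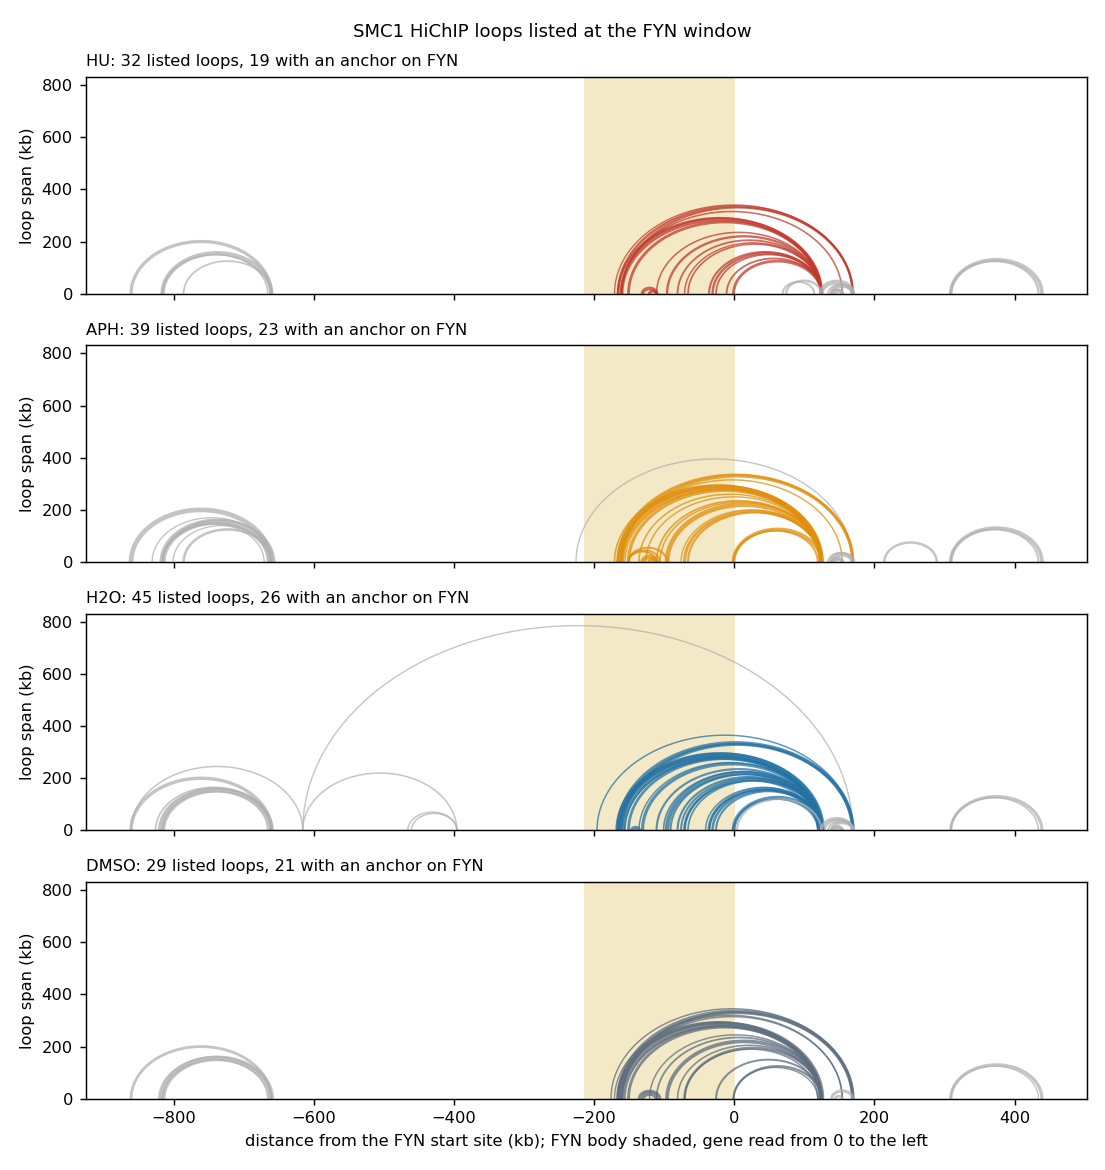
Loops listed at the FYN window in each library, drawn as arcs between anchor centres, with distance from the FYN start site in kb on the horizontal axis and loop span in kb on the vertical axis. Coloured arcs have an anchor on FYN (shaded), grey arcs do not, and line width is proportional to the count. The fan into the anchor 122 kb upstream is seen in HU, APH, H2O and DMSO, with 19, 23, 26 and 21 FYN loops.

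The strongest FYN loop joined the gene near its end to the fan's common anchor. It ran from chr6:111710001-111715000 to the bin at 111995001, spans 285 kb and had 35 counts in HU against 64 in H2O, and 47 in APH against 54 in DMSO. Scaled per 100000 counts of shared loops this was 10.9 in HU and 19.7 in H2O, and 12.5 in APH and 18.0 in DMSO. Both drug libraries thus stood below both vehicles at this loop, with a log2 ratio of -0.85 (-1.49 to -0.24) for HU over H2O and -0.53 (-1.12 to 0.06) for APH over DMSO. From the adjacent bin at 111705001 the loop to the same anchor had 20 counts in HU against 47 in H2O, and 33 in APH against 25 in DMSO. It was the lowest of the window in HU over H2O, at -1.22 (-2.05 to -0.43), and stood at 0.07 (-0.72 to 0.88) in APH over DMSO. At this loop the H2O library was itself above DMSO, at 0.79 (0.06 to 1.56), and HU over DMSO was -0.42 (-1.35 to 0.48).

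The same 2 bins near the end of FYN also reached the farther upstream anchor, at 112040001. From 111705001 that loop of 335 kb had 22 counts in HU against 34 in H2O, and 21 in APH against 32 in DMSO. It was the lowest of the window in APH over DMSO, at -0.94 (-1.80 to -0.10), and HU over H2O was -0.61 (-1.46 to 0.20). From 111710001 the loop of 330 kb had 17 counts in HU against 28 in H2O, and 29 in APH against 28 in DMSO. HU was lowest of the 4 libraries there after scaling, and the intervals of both ratios included 0, at -0.70 (-1.67 to 0.22) for HU over H2O and -0.28 (-1.08 to 0.53) for APH over DMSO. Pooled, the 2 loops to the farther anchor stood at -0.65 (-1.27 to -0.05) in HU over H2O and -0.59 (-1.16 to -0.03) in APH over DMSO. They held 20.3% of the FYN counts in HU (95% exact binomial interval 14.9 to 26.7), 18.1% in APH (13.7 to 23.1), 19.7% in H2O (15.4 to 24.5) and 23.3% in DMSO (18.3 to 29.0), with intervals that all overlapped.

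Further into the gene, towards its starts, HU stood low at some anchors and not at others. The loop from 111720001 had 25 counts in HU against 24 in H2O, and 29 in APH against 26 in DMSO, with ratios of 0.07 (-0.79 to 0.95) and -0.17 (-0.99 to 0.65). It was the 1 FYN loop of the 9 that did not stand lower in HU than in H2O. The loop from 111760001, the bin just upstream of the internal start, was the weakest by total count. It had 14 in HU against 19 in H2O, and 16 each in APH and DMSO. The internal start site itself lies in the adjacent bin, and only the upstream end of its window shown above reaches 111760001. The loop from 111775001 had 21 counts in HU against 39 in H2O, and 42 in APH against 33 in DMSO, with ratios of -0.88 (-1.72 to -0.08) for HU over H2O and 0.02 (-0.67 to 0.72) for APH over DMSO. The loop from 111800001 had 13 in HU against 25 in H2O, and 27 in APH against 23 in DMSO, with ratios of -0.93 (-2.02 to 0.09) and -0.10 (-0.95 to 0.77). At both of these loops HU was below the other 3 libraries after scaling, and those 3 lay close together.

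The promoter itself was among the anchors. The bin at 111870001, which holds both upstream start windows printed above as well as the start of the divergent lncRNA LOC102724646, was joined over 125 kb to the fan's common anchor. This loop had 25 counts in HU against 35 in H2O, and 33 in APH against 20 in DMSO. HU lay between the 2 vehicles after scaling, at 7.76 per 100000 in HU against 10.7 in H2O and 6.66 in DMSO, while APH was at 8.75. HU over H2O was -0.47 (-1.27 to 0.31) and HU over DMSO 0.22 (-0.69 to 1.15), so the loop at the FYN promoter gave no direction that held against both vehicles. APH over DMSO was 0.39 (-0.45 to 1.27) and APH over H2O -0.30.

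**Figure D2:**
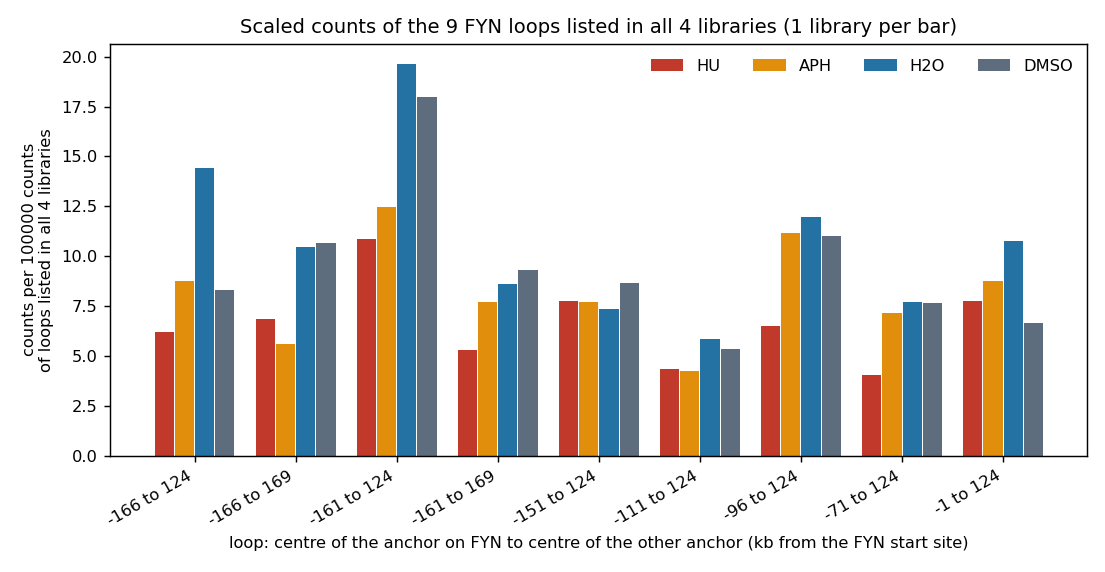
Scaled counts (counts per 100000 counts of loops listed in all 4 libraries) of the 9 FYN loops in HU, APH, H2O and DMSO, 1 library per bar, with each loop named by its anchor centres in kb from the FYN start site. HU is the lowest bar at 5 of the 9 loops, and the loop at -161 to 124 kb reads 10.9 in HU against 19.7 in H2O.

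Summed over the 9 loops, FYN had 192 counts in HU against 315 in H2O, and 277 in APH against 257 in DMSO. Per 100000 counts this was 59.6 in HU and 96.7 in H2O, and 73.5 in APH and 85.6 in DMSO, so that the order from low to high was HU, APH, DMSO, H2O. The log2 ratio was -0.70 (-0.96 to -0.43) for HU over H2O, a fold of 0.616. For APH over DMSO, the comparison that shares no library with it, the ratio was -0.22 (-0.47 to 0.03), a fold of 0.859, and the interval included 0. Whether it does depends on the scaling, since scaling by all listed loops (732695 counts in APH, 449565 in DMSO) gave -0.60 (-0.85 to -0.35). That scaling lowers every gene and loop of APH over DMSO by the same amount. FYN therefore keeps its place among genes, and the -0.60 is not particular to FYN. HU over DMSO was -0.52 (-0.80 to -0.25) and APH over H2O -0.40 (-0.63 to -0.16), and these share a library with the comparisons above. H2O over DMSO was 0.18 (-0.07 to 0.42), and that interval included 0 too. Among genes with at least 100 counts, the FYN body was at place 12 from the lowest of 2452 in HU over H2O. The window, which is what was picked as low under HU, was at place 691 of 15062 gene windows there, with 4.58% lower. In APH over DMSO the FYN body was at place 449 of 2520, with 17.8% of genes lower. The window was at place 3514 of 15103 in APH over DMSO, with 23.3% lower.

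**Figure D3:**
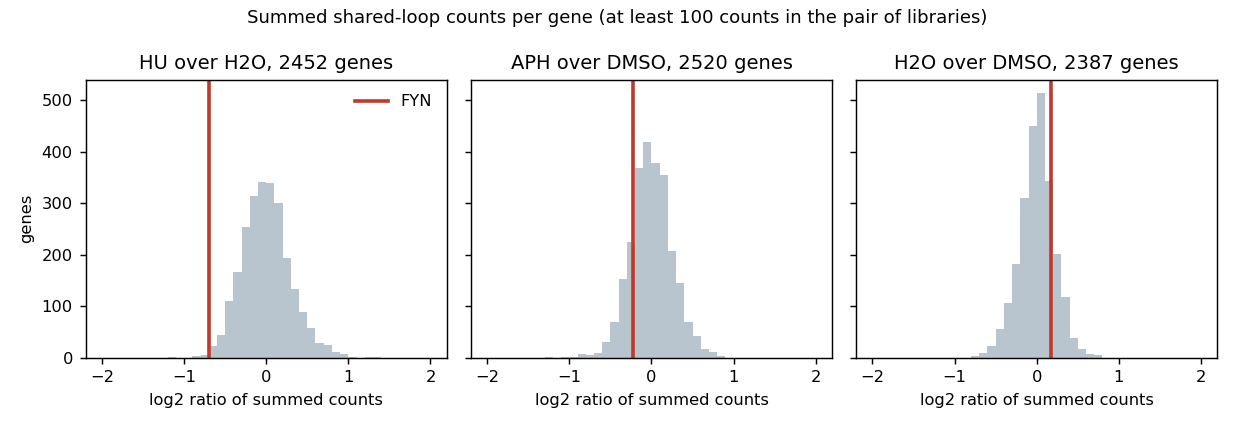
Number of genes by log2 ratio of summed shared-loop counts, for genes with at least 100 counts in the pair of libraries, with FYN as a red line. FYN stands at -0.70 in HU over H2O, at the low edge of 2452 genes, at -0.22 in APH over DMSO and at 0.18 in H2O over DMSO.

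Loop by loop, 8 of 9 FYN loops were below 0 in HU over H2O, with a median of -0.70, and 6 of 9 were at least 1.5-fold lower, where 8.61% of all 9529 loops were. None of the 16 window loops was at least 1.5-fold higher, where 8.42% of all loops were. That comparison chose the window, so nothing is read from these counts. In APH over DMSO, 6 of 9 FYN loops were below 0 with a median of -0.17, and 1 of 9, the loop from 111705001 to the farther anchor, was at least 1.5-fold lower, where 7.87% of all loops were. None was at least 1.5-fold higher, against 6.59% of all loops. In H2O over DMSO, 2 of 9 were at least 1.5-fold higher, against 5.5% of all loops, namely those from 111705001 and from the promoter bin to the nearer anchor, and 0 of 9 were lower, against 5.34%. The median over all 9529 loops was -0.01 in HU over H2O, -0.02 in APH over DMSO and -0.01 in H2O over DMSO. Some of the 9 FYN loops start from adjacent bins and end in the same anchor. With loops joined when their anchors differ by at most 1 bin, 5 FYN loops were listed in all 4 libraries. Of these, 4 were at least 1.5-fold lower in HU over H2O and 0 in APH over DMSO. In H2O over DMSO 1 was at least 1.5-fold higher. The shares over all loops are not given for this matching.

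The other loops of the window are given as a description, since HU against H2O chose it. The 7 loops without an anchor on FYN had 207 counts in HU against 194 in H2O, and 232 in APH against 181 in DMSO. Their pooled log2 ratio was 0.11 (-0.18 to 0.40) in HU over H2O and 0.03 (-0.26 to 0.32) in APH over DMSO. On the far side of REV3L, 3 loops end in SLC16A10, an aromatic amino acid transporter gene, and had 82 counts in HU against 93 in H2O, and 115 in APH against 90 in DMSO. Just beyond the fan's common anchor, 2 short loops of 10 and 30 kb between 112010001 and 112045000 had 72 counts in HU against 60 in H2O, and 67 in APH against 50 in DMSO. On LAMA4, a laminin subunit gene upstream of FYN, 2 loops had 53 counts in HU against 41 in H2O, and 50 in APH against 41 in DMSO. The pooled ratio of HU over H2O was -0.17 (-0.61 to 0.28) for SLC16A10, 0.28 (-0.24 to 0.80) for the short intergenic loops and 0.39 (-0.23 to 1.01) for LAMA4, so each interval included 0. For the whole window, FYN included, 399 counts in HU stood against 509 in H2O, and 509 in APH against 438 in DMSO, at -0.34 (-0.53 to -0.14) and -0.11 (-0.30 to 0.08).

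**Figure D4:**
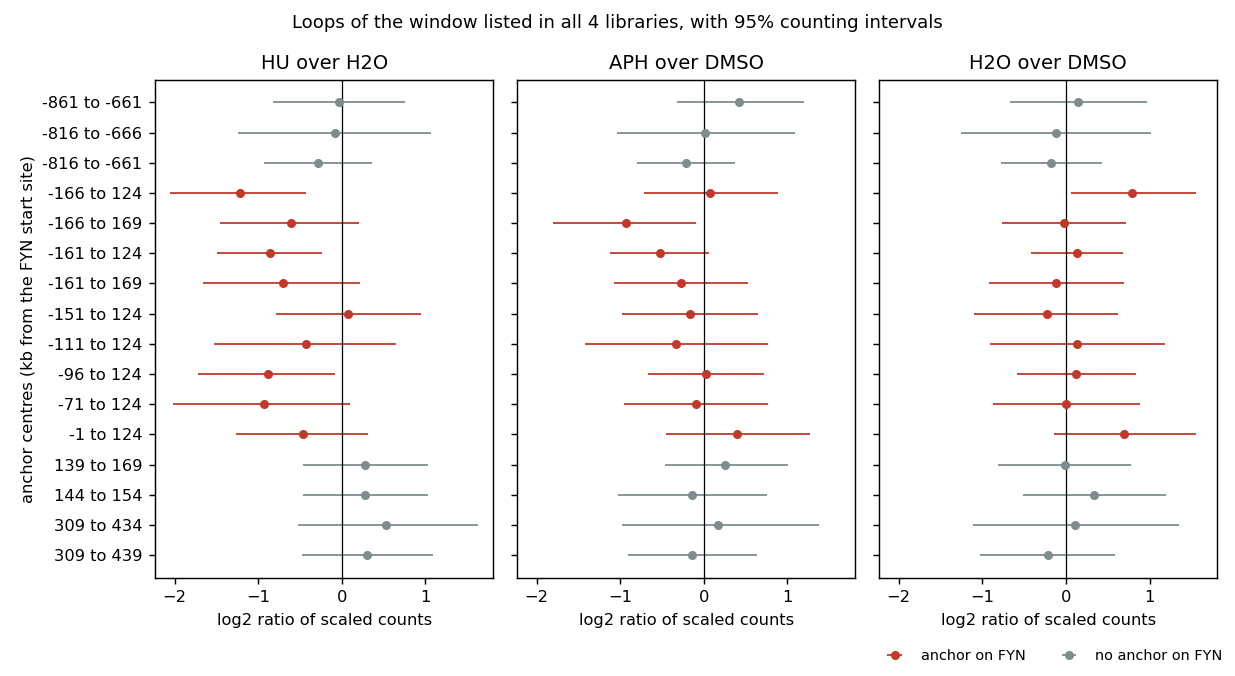
Log2 ratio of scaled counts with 95% counting intervals for the 16 window loops listed in all 4 libraries, for HU over H2O, APH over DMSO and H2O over DMSO, with loops named by their anchor centres in kb from the FYN start site. Loops with an anchor on FYN (red) pool to -0.70 in HU over H2O and the others (grey) to 0.11.

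Loop length differed between FYN and the rest of the window. The 9 FYN loops listed in all 4 libraries were long, with a median span of 275 kb and a range of 125 to 335 kb. Long loops stood lower in both drug libraries over the whole genome. All 1243 shared loops of 250 to 500 kb pooled to -0.13 (-0.15 to -0.11) in HU over H2O and -0.18 in APH over DMSO. In the window, 5 loops of that class, all on FYN, pooled to -0.71 (-1.05 to -0.38) in HU over H2O and -0.38 (-0.70 to -0.06) in APH over DMSO. The 4 shorter FYN loops, with a median span of 207.5 kb, pooled to -0.68 (-1.12 to -0.24) in HU over H2O, close to the longer ones, and to 0.03 (-0.37 to 0.44) in APH over DMSO. With the pooled ratio of all shared loops in the matching span class taken off, FYN stood at -0.60 (-0.86 to -0.33) in HU over H2O, and at -0.09 in APH over DMSO. Observed over expected counts of the 9 loops, with a deposited column read as the expected count, had a median of 7.73 in HU, 8.52 in APH, 8.83 in H2O and 7.80 in DMSO. For 5228 shared loops of 100 to 500 kb the medians were 8.0, 8.42, 8.48 and 8.27 in the same libraries. The FYN medians were within 1 unit of those of loops of similar length.

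No FYN loop lay near the edge of the window. The shared loops just inside it were those of SLC16A10, whose inner anchors lie 49.7 and 54.7 kb from the lower edge, at -0.28 to -0.03 in HU over H2O, and those of LAMA4, 63.5 and 68.5 kb from the upper edge, at 0.31 and 0.53. The nearest shared loops outside it ended 210 kb below the lower edge, at -0.72 and -0.41. Above the upper edge the nearest began 932 kb away, at -1.10, with 18 counts in HU against 39 in H2O. The next began 1252 kb away, at -1.14, with 22 counts in HU against 49 in H2O. All of these outside loops were thus below 0 in HU over H2O.

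The window as a whole held 32 listed loops with 724 counts in HU, 39 with 922 in APH, 45 with 1027 in H2O and 29 with 653 in DMSO. Beside the 9 loops listed everywhere, 32 FYN loops were listed in some libraries only. Of these, 18 were listed in 1 library, 7 in 2 libraries and 7 in 3 libraries. The H2O list alone held 7 of them, APH alone 5, DMSO alone 4 and HU alone 2. A single FYN loop was listed in HU and APH alone, a loop of 10 kb between 111750001 and 111765000 with 28 counts in HU and 38 in APH. A single one was listed in H2O and DMSO alone, from 111800001 to 111990001, with 12 counts in H2O and 13 in DMSO, at or just above the minimum of the lists. The shares of all listed loops with the same patterns are not given here, so nothing particular to FYN is read from these counts. Loops with both anchors inside FYN numbered 2 in HU, 5 in APH, 1 in H2O and 2 in DMSO, spanned 10 to 55 kb and had 16 to 41 counts. No such loop was listed in all 4 libraries, so no ratio was computed for them. The lists differ in depth. With each list thinned to the lowest shared-loop total, FYN loops numbered 18 in HU, 18 in APH, 25 in H2O and 21 in DMSO, and loops of the whole window 31, 28, 41 and 29 in the same libraries.

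The genes next to FYN carried few loops. REV3L, which encodes the catalytic subunit of the translesion DNA polymerase zeta, and SLC60A2 each had 3 loops in H2O and none in the other 3 lists. The loop from 111255001 to 111475001 joined these genes and is counted for both. All of these loops had 12 or 13 counts, at or just above the minimum of the lists. The other coding genes of the window, TRAF3IP2, an adaptor of interleukin 17 signalling, CCN6, TUBE1 with FAM229B, and RFPL4B, had no loop in HU, H2O or DMSO, and TUBE1 with FAM229B had 1 in APH, of 22 counts. Of the 3 coding genes with shared loops, FYN was at least 20% lower in HU over H2O, where 15% of 3821 genes with at least 50 counts were, and LAMA4 at least 25% higher, where 16.8% were. These limits are the same fold in either direction. In APH over DMSO none of the 3 passed this fold.

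The relatives and partners of FYN were looked at in the same way. Of 38 genes listed as Src family kinases, their regulators or partners in antigen receptor signalling, 24 had a shared loop on the gene. LYN and LCK were among those with none. Among the kinases, FRK, a distant relative that also lies on chromosome 6 (115931149 to 116100725), had 128 counts in HU against 175 in H2O, at -0.44 (-0.78 to -0.10), and 158 in APH against 146 in DMSO, at -0.21 (-0.55 to 0.12). The kinase genes SRC, YES1, FGR and BLK lay between -0.25 and 0.13 in HU over H2O and between -0.11 and 0.01 in APH over DMSO. None of these 5 kinases passed the fold in APH over DMSO.

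Taking the kinases, regulators and partners together, both directions were seen. In HU over H2O, 5 of the 20 listed genes with at least 50 counts were at least 20% lower, where 15% of all such genes were, namely FRK, the ubiquitin ligase gene CBL (-0.33, -0.69 to 0.02), the exchange factor gene VAV1 (-0.43, -1.0 to 0.14), the FYN-binding adaptor gene SKAP1 (-0.42, -0.80 to -0.04) and the adaptor gene GRB2 (-0.44, -0.74 to -0.14). The intervals of CBL and VAV1 included 0. At least 25% higher were 2 of the 20, where 16.8% of all such genes were, among them FYB1, the adaptor partner of SKAP1 (0.52, -0.04 to 1.08). The lowest ratio of the 24 was that of CBLB, a ubiquitin ligase gene, which had 12 counts in HU against 20 in H2O, too few to be counted. The median of the 20 was -0.19, beside -0.0037 over all 3821 genes. In APH over DMSO, 4 of 21 were lower, where 12.6% of 3861 genes were, namely PAG1, the membrane anchor of the kinase CSK (-0.55, -0.88 to -0.21), CD247, the zeta chain of the T cell receptor (-0.85, -1.48 to -0.23), VAV1 (-0.51, -1.08 to 0.05) and GRB2 (-0.41, -0.68 to -0.13). CD79A, a chain of the B cell receptor, was higher (0.42, -0.44 to 1.33), where 13.8% of genes were. The median of the 21 was -0.04, beside 0.0014 over all genes.

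Genes with the pattern closest to FYN over the 4 libraries were found by the Euclidean distance of log2 scaled counts, centred on each gene's mean, among 3831 genes outside the window with at least 100 counts in all. The 5 closest were TRERF1, POU2AF3, KCNK6, JAK2 and CLIP2, at distances of 0.015, 0.024, 0.075, 0.077 and 0.081. Each rests on 1 or 2 loops. JAK2, which encodes a cytokine receptor kinase, had 44 counts in HU against 69 in H2O, and 59 in APH against 56 in DMSO. TRERF1 had 21 in HU against 34 in H2O, and 30 in APH against 28 in DMSO. The distance compares 4 values a gene, each from few counts, and its error was not estimated.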

How the data were processed

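SMC1 HiChIP was performed on 4 libraries of GM12878 cells, 1 per treatment group. GM12878 is given by the source, cell line and library fields of the labels, whereas titles carry the name of a different lymphoblastoid line. Cells were cross-linked with 2 agents, 1 of them formaldehyde, and a commercial Hi-C kit was used, per the labels' protocols. Per the submitters' processing notes, bcl2fastq 2.17, MACS3 3.0.1 and the build hg38 were used. Which aligner and loop caller were run is not given in the sources used here.

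Each library has 1 deposited list of loops with no header, so the meaning of its columns was read from the values. Contact counts were deposited as whole numbers and are not normalized. The deposited expected count is taken from a column that is not whole, and every contact count is at least 2 times it. A deposited column read as an adjusted p-value lies below 0.01 throughout and was not used further. The total read depth is unknown.

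Loops were joined by identical bins, and gene sums add all loops listed in all 4 libraries with an anchor on the gene body. No pseudocount was added. The tools were scipy 1.17.1 for intervals, pandas 2.3.3 and numpy 2.4.6 for tables and matplotlib 3.10.9 for figures, under Python 3.11.15. A loop counts as lower or higher from 1.5-fold and a gene from 20% lower or 25% higher, where both libraries of the pair sum to 50 counts or more. Gene positions and promoter windows are from RefSeq, GRCh38.p14. Named loops are those on FYN and those of the window with most counts or the highest and lowest ratios. Named genes are the coding genes of the window, members of the Src family lists past the fold or at an extreme, and the 5 genes most alike to FYN. A listed gene that the rule names is not reported here. The window, the lists and the rules were chosen with earlier results of these data known. The ratio of a loop and its interval were tested on simulated counts that held counting error only. The overlap of anchors was tested on made-up coordinates, and the other steps were not tested in this way. Alternatives covered scaling, matching of anchors, minimum counts, expected counts, span class and the width of the window.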

Additional observations from a re-analysis of the deposited data

How the results depend on the processing

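No paired analysis was possible because each group holds 1 library. The FYN sum kept its side in HU over H2O under all 9 alternatives run, from -0.72 to -0.47, and the window sum under all 11, from -0.49 to -0.15. That comparison chose the window and the alternatives reuse the same libraries, so the kept side supports nothing. The counting interval came to include 0 for the window with at least 24 counts (-0.15, -0.40 to 0.09) and for FYN with anchors near a gene end (-0.47, -1.27 to 0.31). Scaling by all listed loops, whose totals follow how much was called, moves every loop of a comparison by the same amount. It took APH over DMSO to -0.60 (-0.85 to -0.35) for FYN and -0.49 (-0.68 to -0.30) for the window. Those intervals no longer included 0, but FYN and its window kept their places among genes and gene windows. H2O over DMSO went to -0.14 for the window. With anchors within 5 kb of a gene end, which leaves only the loop at the FYN promoter, APH over DMSO went to 0.39, H2O over DMSO to 0.69, and HU over DMSO reversed to 0.22. With both anchors on FYN no shared loop was left, so that alternative has no value.

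The count of window loops at least 1.5-fold lower in HU over H2O, 6 as reported, was 1 with at least 24 counts, a minimum that drops loops low in HU, and 4 to 7 otherwise. At least 1.5-fold higher there was 1 loop under scaling by chromosome 6 and 1 relative to span class, against 0. In APH over DMSO, lower loops went from 1 to 5 under scaling by all listed loops, to 0 with a tolerance of 1 bin and with at least 24 counts, and to 2 with expected counts and with a window of 1000 kb, and higher loops from 0 to 1 with expected counts. In H2O over DMSO, higher loops went from 2 to 0 under scaling by all listed loops, and to 1 with a tolerance of 1 bin and with at least 24 counts. The shares of all loops past the fold under these alternatives are not given, and a change of scaling moves all loops alike. Nothing particular to the window is therefore read from these counts. The cause of these shifts was not tested.

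Pooled loops of 250 kb or more minus those under 100 kb in the window stood at -0.99 (-1.61 to -0.37) in HU over H2O. The difference was -0.48 (-1.12 to 0.17) in APH over DMSO and -0.01 (-0.65 to 0.64) in H2O over DMSO. No alternative moved these beyond their approximate counting interval. Scaling cancels in such a difference, so the alternatives of scaling could not move it. The window of 250 kb and both anchors in the window held the same loops, so neither could these. With a tolerance of 1 bin APH over DMSO was -0.74 (-1.46 to -0.03), an interval that no longer included 0. The 5 long loops are all on FYN and the 2 short ones are not, so length and the gene cannot be told apart there. With at least 24 counts the window held 12 loops with 385 counts in HU, 15 with 546 in APH, 18 with 609 in H2O and 11 with 371 in DMSO. Chosen after seeing the data, thinning each list to the lowest shared-loop total left the common upstream anchor with 14 loops in HU, 11 in APH, 21 in H2O and 12 in DMSO, still at place 1 in HU and H2O. With at least 24 counts it had 4, 6, 9 and 4 loops in the same order, at place 160 in HU and 2 in H2O.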
